A study of Mus musculus with 3 samples.

Results

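Apoe and 7 genes that act with it in lipoprotein transport were followed through mouse bone marrow, from 3 droplet single-cell RNA libraries (10x Genomics 3' chemistry, version 3.1). The 8 genes, Apoe, Lrp1, Scarb1, Cd36, Msr1, Abca1, Abcg1 and Pltp, were taken by symbol from the 32285 genes of the files, and all 8 were found. They were chosen by their fusion-against-wild-type differences in these same libraries, so every difference given for them is a description without a test. Of the 3 libraries, 2 carry the genotype label Ep300-Znf384-V5-HA, a tagged mouse version of the EP300-ZNF384 fusion of acute leukaemia, and 1 is labelled Wild type. All came from the femur and tibia of males aged 6 weeks, and in each library unselected live cells were pooled with an equal number of sorted live cells lacking lineage markers, red cells having been lysed first. The labels name neither the promoter or cells in which the fusion is active nor the number of animals per library, so the spread between the fusion libraries may be technical and the wild type has no replicate.

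Apolipoprotein E is the protein that lets lipoprotein particles dock on receptors at the cell surface, and macrophages are a well-known source of it. LRP1 is a large endocytic receptor for such particles, SR-BI (Scarb1) exchanges cholesterol with high-density lipoprotein, and CD36 and MSR1 are scavenger receptors that take up fatty acids and modified lipoproteins. ABCA1 and ABCG1 pump cholesterol out of the cell onto apolipoproteins and high-density lipoprotein, and PLTP moves phospholipid between particles. In bone marrow this system is known for holding down cholesterol in stem and myeloid progenitor cells.

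The promoters of Apoe, of its neighbour Apoc2 and of Cd36 are shown because these genes were high in fusion neutrophils (Apoe and Apoc2) or fusion B-lineage cells (Cd36) in the values that follow. Each run is 300 bases from RefSeq (GRCm38.p6), from 250 bases before to 50 bases after the annotated start. The Cd36 start used lies inside the gene's GENCODE span, whose upstream end is at 17888801, so a promoter at that end is not shown. All 3 genes are on the minus strand, and capitals mark every match, on either strand, to 4 short motifs: AGGTCA (core of nuclear receptor sites), AGATAA (bound by erythroid transcription factors of the Gata family), CAAAAA (an A-rich element of the kind ZNF384 is known to bind) and ATGCAAAT (the octamer of B cell promoters).
Apoe, chr7:19699139-19699438: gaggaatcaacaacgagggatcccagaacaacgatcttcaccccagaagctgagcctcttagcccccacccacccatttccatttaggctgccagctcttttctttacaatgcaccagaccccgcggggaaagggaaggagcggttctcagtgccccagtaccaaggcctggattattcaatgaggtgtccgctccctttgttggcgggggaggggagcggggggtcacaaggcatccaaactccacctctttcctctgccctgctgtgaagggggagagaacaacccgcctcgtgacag
Apoc2, chr7:19677892-19678191: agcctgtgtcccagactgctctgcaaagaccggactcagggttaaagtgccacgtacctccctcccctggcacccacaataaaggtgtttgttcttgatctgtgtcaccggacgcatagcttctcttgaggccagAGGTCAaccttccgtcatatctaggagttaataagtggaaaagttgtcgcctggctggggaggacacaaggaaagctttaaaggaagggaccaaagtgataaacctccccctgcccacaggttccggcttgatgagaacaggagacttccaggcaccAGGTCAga
Cd36, chr5:17835847-17836146: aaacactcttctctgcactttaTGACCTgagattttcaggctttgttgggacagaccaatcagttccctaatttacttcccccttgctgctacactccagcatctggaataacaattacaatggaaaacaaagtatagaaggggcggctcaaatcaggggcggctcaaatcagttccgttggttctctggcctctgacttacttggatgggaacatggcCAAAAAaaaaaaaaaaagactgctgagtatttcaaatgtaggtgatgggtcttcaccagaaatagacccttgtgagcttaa
The Apoe window at its most upstream annotated start held 0 matches to any of the 4 motifs. Of the windows at its 2 other annotated starts, not printed, 1 held 0 matches and 1 held a match to CAAAAA. The Apoc2 window held 2 matches to AGGTCA, and the Cd36 window held 1 to AGGTCA, on the opposite strand, and 1 to CAAAAA. Among 32851 promoters searched in the same way, 16.3% held AGGTCA, 11.2% AGATAA, 15.8% CAAAAA and 1.74% the octamer, so a match in 1 promoter is common for the 3 shorter motifs. A match is a string of letters and not a site, and no match says only that these letters are not in this window. Of the other members, the windows of Lrp1 and Pltp, not printed, held 0 matches, and that of Abca1, not printed, held 1 to CAAAAA. Those of Abcg1, Msr1 and Scarb1 are not shown.

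The files held 97192347 and 111836603 UMIs (unique molecules) in fusion replicates 1 and 2 and 93262028 in wild type. After filtering, 7313, 6895 and 7431 cells were kept, with median depths of 7360, 10008 and 7430 UMIs per cell. Between 19 and 23 barcodes were shared by any 2 libraries. Clusters were named by marker lists and joined into 13 classes, each with at least 50 cells in every library. Levels are CPM, a gene's counts scaled to the same total within every class and library, from plain totals unless called normalised (then with edgeR's scaling factors), and fold changes are fusion over wild type on a log2 scale with their standard error (SE). A gene was called where the adjusted p of the edgeR quasi-likelihood test over all genes of the class was under 0.05. Markers of stroma and endothelium summed to between 3.7 and 4.2 CPM over all cells, and the 12 macrophage markers to between 53.0 and 55.5 CPM, and no cluster was named for either cell type. Fewer cells of a type and less RNA per cell cannot be told apart in values over all cells.

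Apoe, on chromosome 7 (19696109 to 19699188, minus strand, GRCm38), had UMIs in all 13 classes, but its level differed widely between them. Basophils and mast cells, and monocytes with dendritic cells, held the most in the fusion libraries, at 1022 ± 29.8 and 921 ± 88.5 CPM (SD, n = 2). Erythroid progenitors followed at 467 ± 5.03 CPM and mature neutrophils at 452 ± 103 CPM. Wild type had another order at the top. There, erythroid progenitors led with 526 CPM, followed by monocytes with dendritic cells at 465 CPM, basophils and mast cells at 451 CPM and megakaryocytes at 291 CPM, while mature neutrophils stood at 73.8 CPM. At the low end were erythroblasts, immature neutrophils and pro-B cells, with between 5.36 and 22.4 CPM over all 3 libraries. In the order of mean level over the 3 libraries, neighbouring classes overlapped in range at every step except between plasmacytoid dendritic cells and erythroblasts. In the 2 fusion libraries alone, neighbours overlapped between erythroid progenitors and mature neutrophils, between megakaryocytes and the stem class, between B cells, T cells and granulocyte-monocyte progenitors, and among the lowest 3 classes.

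**Figure D1:**
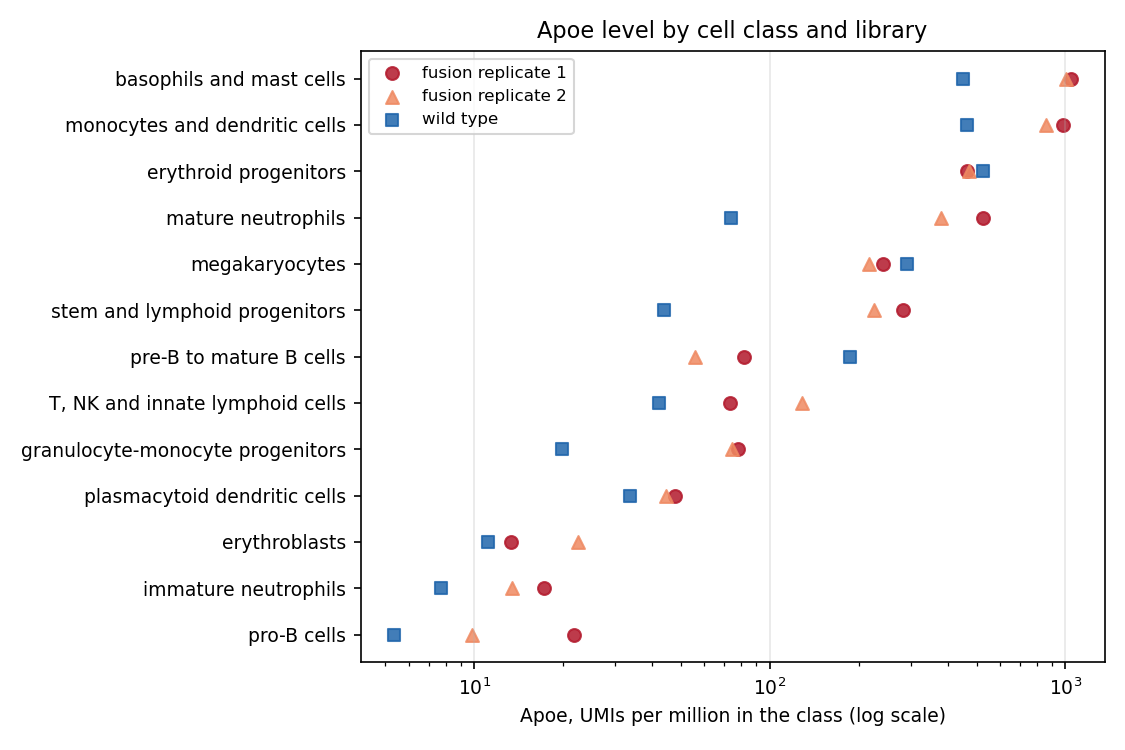
Apoe level (CPM in the class, log axis) in 13 cell classes, 1 point per library, classes ordered by their mean. The wild type square lies left of both fusion points in 10 classes, by the widest margins in mature neutrophils and in stem and lymphoid progenitors, and right of them in erythroid progenitors, megakaryocytes and B cells.

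Both fusion libraries were above wild type in 10 of 13 classes and below it in 3. Under other groupings the count above was 8 of 12 at Leiden resolution 0.5 and 7 of 12 at resolution 2. It was 9 of 12 with doublets kept and also without the lipid genes, and 7 of 11 when clusters were made without called genes. In erythroblasts, 1 of the 10, the direction turned at finer clustering (Leiden resolution 2), where 78, 104 and 76 cells gave 4.91, 6.92 and 12.5 CPM and a log2 fold change of -1.08. Pro-B cells, also among the 10, turned to -0.51 at resolution 2 and -1.45 at resolution 0.5, where the class took in other B cells. In mature neutrophils, short-lived phagocytes that leave the marrow for the blood, Apoe measured 526 and 379 CPM in fusion replicates 1 and 2 and 73.8 CPM in wild type, a log2 fold change of 2.50 ± 0.25. Both fusion values were far above the wild type value. The log2 fold change was 1.75 with predicted doublets kept and 3.05 when clusters were made without the lipid genes. In stem and lymphoid progenitors the levels were 282, 224 and 43.8 CPM in the same order, a log2 fold change of 2.51 ± 0.21. Granulocyte-monocyte progenitors, which give rise to neutrophils and monocytes, had 78.1, 74.2 and 19.8 CPM, a log2 fold change of 1.90 ± 0.12. The fusion libraries agreed closely in these progenitors, at 76.1 ± 2.73 CPM (SD, n = 2), yet Apoe was not called there because edgeR called 0 of 12247 genes in this class, with 782 at an unadjusted p under 0.05.

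In basophils and mast cells Apoe measured 1043 and 1001 CPM in fusion and 451 CPM in wild type, a log2 fold change of 1.07 ± 0.22, which DESeq2 did not call. The gap held in both clusters of the class. The cluster led by Prss34, Mcpt8 and Cpa3 had 1144, 1066 and 564 CPM, and the one led by Ccl3 and Ccl4 had 496, 512 and 196 CPM. Immature neutrophils had low levels of 17.2, 13.4 and 7.73 CPM, a log2 fold change of 0.81 ± 0.21, and plasmacytoid dendritic cells had 47.8, 44.3 and 33.6 CPM. Both stood above wild type without being called, but not under every grouping. The immature neutrophil cluster of 651, 567 and 415 cells had 11.8, 7.04 and 14.4 CPM, with wild type highest. Another of 355, 292 and 295 cells had 24.7, 20.1 and 2.44 CPM, and the rest were almost all fusion or almost all wild type cells. Without called genes, a plasmacytoid cluster of 29, 44 and 90 cells had 134, 88.9 and 129 CPM, with wild type between the fusion values.

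Erythroid progenitors did not share the gap. Their levels were 464, 471 and 526 CPM, a log2 fold change of -0.19 ± 0.19. Within them Apoe was the leading gene of 2 early clusters that also carried Gata2 or proliferation genes, at 1585, 1440 and 1823 CPM in the first and 1401, 1290 and 1516 CPM in the other. In the clusters led by Car1 and Car2, carbonic anhydrase genes of later erythroid cells, it was 379, 387 and 393 CPM and 235, 224 and 223 CPM, and in haemoglobin-rich erythroblasts 13.3, 22.4 and 11.1 CPM. Apoe was thus lower in each of these groups than in the one named before it, in every library. Wild type was the highest library in both early clusters. Megakaryocytes, the platelet-forming cells, had 241, 216 and 291 CPM, a log2 fold change of -0.39 ± 0.19.

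B cells were the class in which Apoe was called lower, with 81.7, 55.9 and 187 CPM and a log2 fold change of -1.56 ± 0.27. Few cells carried these counts. The 5 cells with the most Apoe held 89.8% and 73.5% of its UMIs in the fusion libraries and 59.2% in wild type, and without them the levels were 9.89, 17.3 and 83.5 CPM. Finer clustering set apart a plasma cell cluster of 4, 5 and 29 cells. It held 35 of 49, 6 of 34 and 163 of 267 Apoe UMIs of the class in fusion replicates 1 and 2 and wild type. A cluster scored as pro-B had 16.7, 30.8 and 84.8 CPM and a mature B cluster 45.7, 90.2 and 136 CPM, with wild type highest in both. The call was absent with DESeq2, without the gene filter, with doublets kept and when clusters were made without the genes called between genotypes, where the log2 fold change was -0.57. In T, NK and innate lymphoid cells, which are not known as a source of apolipoprotein E, 73.5% to 97.2% of Apoe UMIs lay in 5 cells per library. Without those cells the class had 21.0, 3.99 and 6.08 CPM in place of 73.2, 129 and 42.3.

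The share of cells with an Apoe UMI gave the same picture for most classes when each cell was thinned to 2000 UMIs. In mature neutrophils 25.6% (exact 95% interval 22.6 to 28.8, counting error only) and 27.7% (24.9 to 30.7) of fusion cells had Apoe, against 7.67% (5.98 to 9.65) of wild type cells. This left out 759, 251 and 371 shallower neutrophils, and without thinning the shares were 36.4%, 35.4% and 9.42%. In stem and lymphoid progenitors the thinned shares were 30.9%, 23.1% and 6.00%, and in granulocyte-monocyte progenitors 10.5%, 8.52% and 3.01% (38.5%, 38.5% and 17.3% without thinning). For comparison, T, NK and innate lymphoid cells had thinned shares of 7.07%, 2.22% and 2.56%, with median depths of 2959, 4235 and 4479 UMIs beside 2024, 2670 and 2507 in mature neutrophils. Within wild type, the interval of the stem class (3.99 to 8.61) and that of granulocyte-monocyte progenitors (2.12 to 4.14) overlapped that of T cells (0.947 to 5.50), while that of mature neutrophils did not. Apoe in those progenitor classes was thus not shown to be above background at this depth. In fusion replicate 1 the interval of granulocyte-monocyte progenitors (8.23 to 13.2) overlapped that of its T cells (2.89 to 14.0). In fusion replicate 2 (6.59 to 10.8) it overlapped that of its own T cells (0.270 to 7.80), with 99 and 90 T cells to set the background. Those shares were not shown to be above background either. Overlap of intervals does not test whether shares differ, and a few cells held most of the Apoe UMIs of T cells. Immature neutrophils (2.71%, 1.36% and 1.33%) and pro-B cells (3.64%, 1.37% and 0.690%) were below the T cell share in every library.

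**Figure D2:**
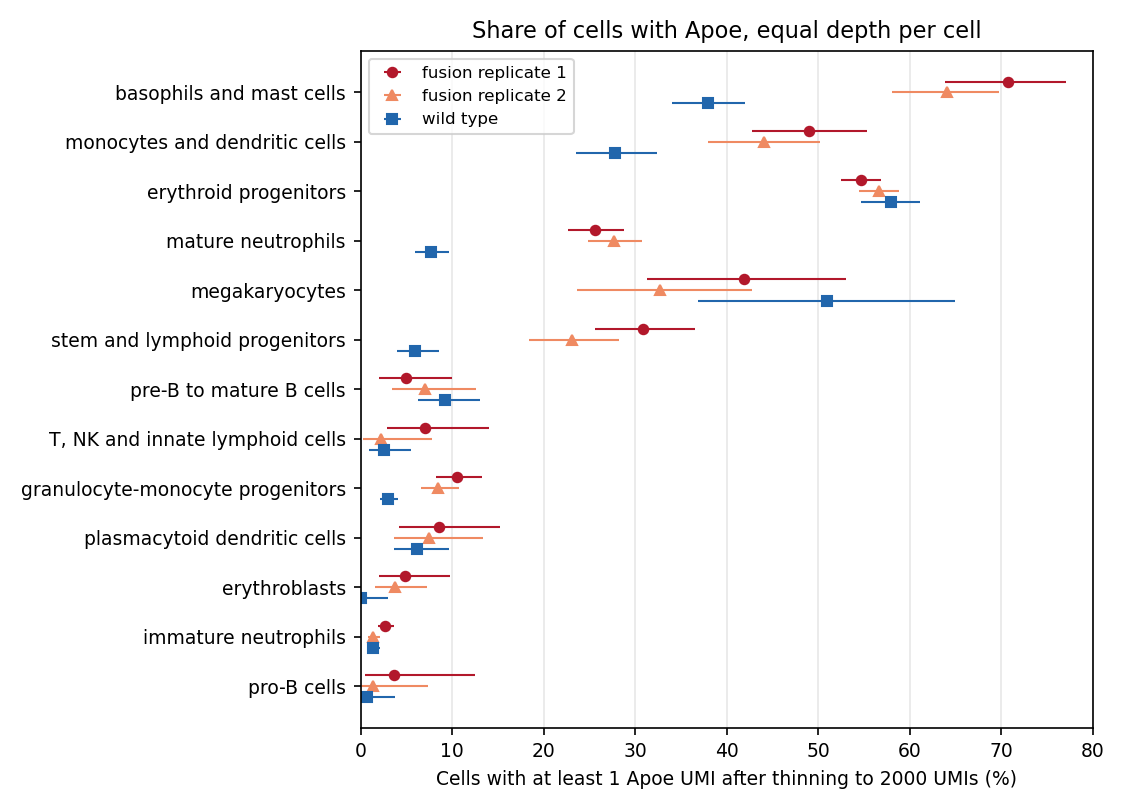
Share of cells with at least 1 Apoe UMI after thinning each cell to 2000 UMIs (percent), by class and library, with exact 95% intervals. Fusion and wild type intervals are apart in basophils, monocytes with dendritic cells, mature neutrophils, stem and lymphoid progenitors and granulocyte-monocyte progenitors, and overlap in erythroid progenitors.

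The neutrophil and stem values rest on classes whose make-up differed by genotype. Of mature neutrophils, 1 cluster held 840, 636 and 1 cells, another 723, 545 and 0, and the last 1231 of the 1232 wild type cells. Clusters were therefore made again without the 2032 genes called in any class, a choice made after seeing the data. The most mature neutrophil cluster then held 1202, 890 and 945 cells, with Apoe at 724, 538 and 104 CPM, and a less mature one of 918, 766 and 749 cells had 44.8, 22.4 and 8.70 CPM. Apoe was higher in fusion in both, and in both genotypes it was higher in the mature cluster. Macrophage markers summed to 193 and 195 CPM in fusion neutrophils and 290 CPM in wild type, with Mertk at 0 and 8 of 12 lower in fusion. The 8 monocyte markers summed to 972, 836 and 728 CPM, with 6 lower in both fusion libraries. Erythroid progenitor markers summed to 432, 316 and 287 CPM with 6 of 10 above wild type. The part of these markers in the Apoe difference was not tested.

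Among stem and lymphoid progenitors, finer clustering placed 219, 230 and 153 cells in a stem cluster, with Apoe at 332, 274 and 104 CPM. A lymphoid progenitor cluster with 60, 59 and 296 cells had 77.3, 10.6 and 3.94 CPM, from only 43, 7 and 12 UMIs. Another with 26, 29 and 69 cells had 123, 201 and 30.9 CPM, from 50, 116 and 37 UMIs. Fusion values were above wild type in each, but the gap in the stem cluster was smaller than in the whole class, which in wild type is mostly lymphoid progenitors. When clusters were made without the lipid genes, the class grew to 675, 661 and 744 cells and the log2 fold change of Apoe was 0.94. Erythroid progenitor markers were also higher in the fusion class, at 504, 457 and 326 CPM with 8 of 10 above wild type, and in granulocyte-monocyte progenitors, at 212, 182 and 159 CPM with 9 of 10 above. Their part in the Apoe difference was not tested.

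Monocytes and dendritic cells held 2 clusters with very different Apoe. The cluster led by Cx3cr1 and MHC class II genes, of 100, 110 and 86 cells, had 3398, 4182 and 3025 CPM, and the one led by F13a1, Ccr2 and Fn1, of 162, 170 and 336 cells, had 346, 167 and 164 CPM. In the first, both fusion libraries were above wild type, and in the other only fusion replicate 1 was clearly above it. Other groupings of the F13a1 and Ccr2 cells put both fusion libraries above wild type, at 315, 165 and 33.2 CPM with finer clustering and 429, 245 and 145 CPM without called genes. The finer clustering also set apart a cluster of almost only wild type cells, with 762 Apoe UMIs and 644 CPM in wild type. The 33.2 CPM therefore covers only part of the wild type monocytes, and the width of that gap depends on the split. The whole class had 984, 859 and 465 CPM and a log2 fold change of 0.96 ± 0.28. The Apoe-rich cluster was a larger part of the fusion class than of the wild type class, and its part in the difference of the class was not tested. The call was absent with DESeq2 and in 3 of the other groupings of cells, with log2 fold changes from 0.94 to 1.23 over all alternatives. In the clusters made without called genes, an Apoe-rich monocyte cluster led by Cx3cr1, Ace and Adgre4 held 47, 73 and 74 cells and had 7679, 6818 and 3661 CPM, so the gap between genotypes within such cells moved with the grouping.

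Of the other 7 members, none tracked Apoe across classes. Over the 39 sums of class and library, the Pearson correlation of log2(CPM + 1) with Apoe lay between -0.17 (Cd36) and 0.36 (Abcg1). Among 8457 genes with a mean of at least 10 CPM, the highest values belonged to Taok3 (0.76), Bbc3 (0.75), Vmp1 (0.72), Rabac1 (0.72) and Asl (0.70). Taok3 encodes a protein kinase, Bbc3 the cell death protein PUMA, Vmp1 an autophagy protein and Asl an enzyme of the urea cycle. These sums share libraries and cell lineages, so the values only describe how alike the profiles were. Taok3 measured 127, 117 and 74.1 CPM in mature neutrophils, above wild type like Apoe, but 139, 148 and 134 CPM in stem and lymphoid progenitors.

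**Figure D3:**
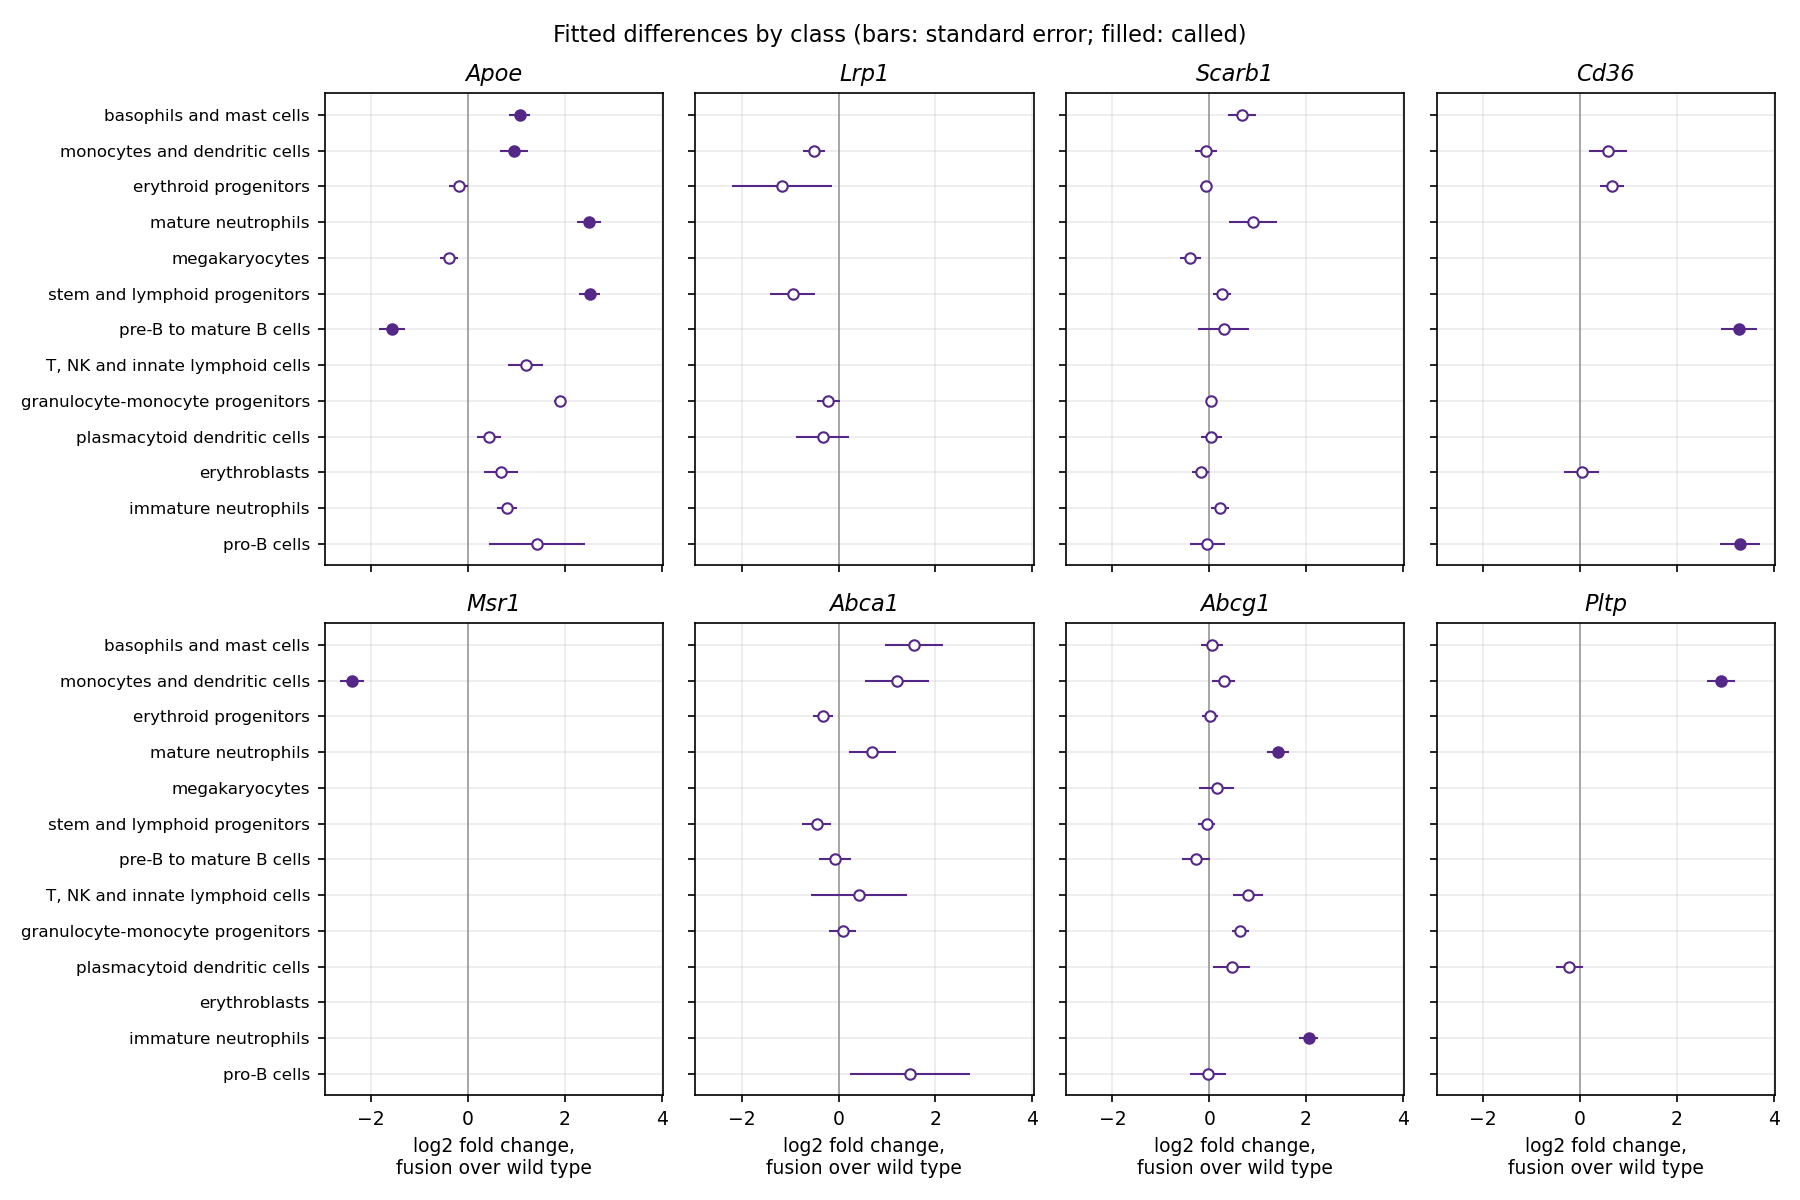
Fitted log2 fold change (fusion over wild type, with SE) of the 8 members in each class where they passed the filter on low counts. Filled points were called. Apoe lies to the right in most classes, Abcg1 stands out in both neutrophil classes, Cd36 in both B-lineage classes, and Pltp and Msr1 lie on opposite sides in monocytes and dendritic cells.

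Counted over classes, 59 of the 104 pairs of member and class passed the low-count filter and 11 were called, which describes the choice of members and supports nothing. The most were called in monocytes and dendritic cells, where all 8 members passed the filter and 3 were called, Apoe and Pltp higher and Msr1 lower, beside 2.78% of all genes. In mature neutrophils 2 of 4 were called (Apoe and Abcg1, higher) beside 6.83% of all genes, and in immature neutrophils 1 of 3 (Abcg1, higher) beside 3.51%. In B cells 2 of 5 were called (Cd36 higher, Apoe lower) beside 1.20%, and in pro-B cells 1 of 5 (Cd36, higher) beside 0.753%. Apoe alone was called, and higher, in basophils and mast cells (1 of 4, beside 8.74%) and in stem and lymphoid progenitors (1 of 5, beside 2.98%). No member was called in T, NK and innate lymphoid cells (0 of 3, beside 0.544%), erythroblasts (0 of 3, beside 0.795%), erythroid progenitors (0 of 6, beside 0.696%), megakaryocytes (0 of 3, beside 0.709%), plasmacytoid dendritic cells (0 of 5, beside 0.353%) or granulocyte-monocyte progenitors (0 of 5, beside 0%). Over all cells 4 of 8 were called, Apoe and Cd36 higher and Lrp1 and Msr1 lower, beside 15.8% of all genes, and these values also carry the shift in class sizes.

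Lrp1, the endocytic receptor on chromosome 10 (127538161 to 127621148), was a gene of monocytes and dendritic cells here. It measured 97.2 and 76.4 CPM in the fusion libraries and 120 CPM in wild type in that class, a log2 fold change of -0.51 ± 0.22, and at most 10.6 CPM in any other. Both fusion libraries were below wild type in 10 of 13 classes and above it in 0. Lrp1 passed the low-count filter in 5 of the 13, without a call in any. Several of the other directions rest on a few UMIs, such as 0, 0 and 3 in basophils and mast cells and 0, 0 and 1 in B cells. The F13a1 and Ccr2 cluster had 75.4, 44.7 and 102 CPM and the Cx3cr1 cluster 180, 229 and 280 CPM, with wild type highest in both. At finer clustering the F13a1 and Ccr2 cells that both genotypes shared had 70.5, 41.5 and 41.3 CPM, so wild type was no longer highest there, and a cluster of 5, 2 and 169 cells had 274 CPM in wild type. Stem and lymphoid progenitors had 3.81, 3.80 and 7.34 CPM, from 11, 13 and 35 UMIs. Over all cells Lrp1 was 3.31, 3.20 and 8.29 CPM, a log2 fold change of -1.34 ± 0.18, in libraries where its main class had 262, 280 and 422 cells and the summed monocyte markers were 609, 620 and 1121 CPM.

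Scarb1, the receptor for high-density lipoprotein on chromosome 5, was detected in every class and was close between genotypes in most. Monocytes and dendritic cells had 91.4, 80.8 and 88.2 CPM, plasmacytoid dendritic cells 78.4, 64.2 and 68.1 CPM and erythroid progenitors 43.9, 38.5 and 42.8 CPM. The fusion values bracketed or touched the wild type value in these classes. It was not called in any of the 12 classes where it was fitted, and its median log2 fold change over them was 0.05. The widest difference was in mature neutrophils, with 9.42, 6.51 and 3.90 CPM from 33, 22 and 13 UMIs, a log2 fold change of 0.91 ± 0.49.

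Cd36, the fatty acid translocase on chromosome 5 (17781690 to 17888801), had its highest class levels in the fusion libraries in the B lineage. By count, the larger class of erythroid progenitors held 212 of 379 and 194 of 407 Cd36 UMIs in fusion replicates 1 and 2. B cells had 78.4 and 117 CPM in fusion and 9.12 CPM in wild type, a log2 fold change of 3.29 ± 0.37 (not called without the gene filter), and pro-B cells 88.8, 64.3 and 7.37 CPM, a log2 fold change of 3.30 ± 0.41. The counts were small but spread over cells. In B cells 47, 71 and 13 UMIs lay in 29, 43 and 8 cells, and in pro-B cells 41, 46 and 11 UMIs lay in 25, 28 and 10 cells. After thinning, 13.5% (8.31 to 20.2) and 21.8% (15.3 to 29.5) of fusion B cells had a Cd36 UMI against 1.32% (0.361 to 3.35) in wild type. In T, NK and innate lymphoid cells, whose median depth was above that of B cells (2612, 2692 and 2494 UMIs), 0 of 99, 0 of 90 and 0 of 234 cells had one, which allows shares of up to 3.03%, 3.33% and 1.28%, taking 3 counts of the total as the limit.

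The difference in Cd36 held in each stage that finer clustering separated. A cluster scored as pro-B with 97, 89 and 189 cells had 58.6, 66.0 and 0 CPM, with 0 UMIs in wild type. A mature B cluster of 70, 67 and 164 cells had 133, 223 and 23.0 CPM. In the clusters made without called genes, the B cell cluster had 95.4, 98.8 and 7.41 CPM. The pro-B cluster of 21, 30 and 59 cells there had a smaller gap, at 22.1, 31.9 and 7.49 CPM from 4, 9 and 5 UMIs. Outside the B lineage the differences were smaller and not called. Erythroid progenitors had 4.22, 3.82 and 2.50 CPM (log2 fold change 0.66 ± 0.24), and erythroblasts had 10.5, 7.59 and 8.35 CPM. The cluster led by Cx3cr1 and MHC class II genes had 65.5, 76.2 and 80.2 CPM. Without called genes, the monocyte cluster led by Cx3cr1, Ace and Adgre4 had 201, 147 and 98.3 CPM, above the B cell cluster in every library. No Cd36 UMI was found in stem and lymphoid progenitors, basophils and mast cells, megakaryocytes or T cells of any library. Macrophage markers summed to at most 19.7 CPM in B cells, with C1qa, C1qb, C1qc and Adgre1 among 7 of 12 at 0 in every library.

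Msr1, the class A scavenger receptor of macrophages on chromosome 8, was nearly confined to monocytes and dendritic cells, with at most 0.670 CPM in any other class and 0 UMIs in 7 of 13. There it measured 17.7 and 8.75 CPM in fusion and 66.1 CPM in wild type, from 40, 26 and 290 UMIs, a log2 fold change of -2.40 ± 0.24. Wild type was the high library in both clusters, with 19.5, 8.13 and 69.0 CPM in the F13a1 and Ccr2 cluster and 10.6, 11.7 and 41.2 CPM in the Cx3cr1 cluster. In the Apoe-rich monocyte cluster made without called genes it was 0, 0 and 78.7 CPM. At finer clustering the Cx3cr1 cluster had 10.5, 11.4 and 8.11 CPM, with wild type lowest, and the F13a1 and Ccr2 cluster 19.3, 7.40 and 41.6 CPM. The cluster of 5, 2 and 169 cells, almost all wild type, had 143 CPM in wild type, so fusion and wild type monocytes did not have the same sub-groups. Over all cells Msr1 was 0.479, 0.259 and 3.44 CPM, a log2 fold change of -3.22 ± 0.31.

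**Figure D4:**
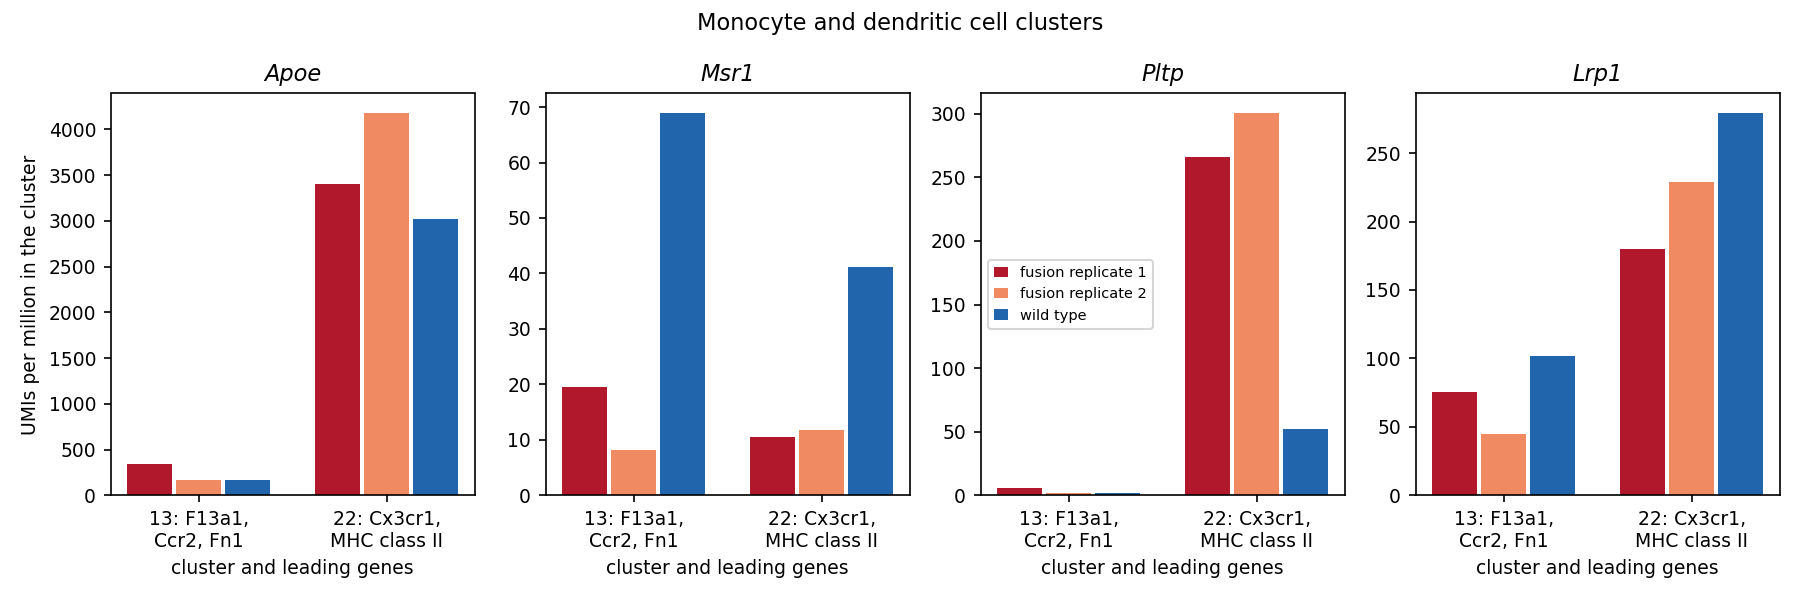
Apoe, Msr1, Pltp and Lrp1 (CPM in the cluster, a separate axis for each gene) in the 2 clusters of monocytes and dendritic cells, 1 bar per library. Wild type is the highest bar for Msr1 in both clusters and the lowest for Pltp in the Cx3cr1 cluster, and the Apoe bars differ far more between clusters than between genotypes.

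Pltp, the phospholipid transfer protein gene on chromosome 2, moved the other way in the same class. It measured 60.1 and 53.2 CPM in fusion and 7.29 CPM in wild type, a log2 fold change of 2.92 ± 0.29, with 136, 158 and 32 UMIs. The Cx3cr1 cluster carried it, with 266, 301 and 52.0 CPM, while the F13a1 and Ccr2 cluster had 5.58, 1.63 and 2.04 CPM. The gap in Pltp was therefore present within that cluster. Plasmacytoid dendritic cells expressed Pltp without such a gap, at 44.0, 79.5 and 72.8 CPM. Elsewhere it did not exceed 8.61 CPM, and 2 classes had 0 UMIs.

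Abcg1, the cholesterol exporter on chromosome 17 (31057675 to 31117988), was higher in the fusion libraries along the neutrophil lineage, though not there alone. Immature neutrophils had 35.9 and 30.5 CPM in fusion and 7.10 CPM in wild type, a log2 fold change of 2.05 ± 0.20, and mature neutrophils 141, 114 and 44.1 CPM, a log2 fold change of 1.42 ± 0.22. Both were called under all 8 alternatives. Granulocyte-monocyte progenitors had 21.1, 15.8 and 11.3 CPM, a log2 fold change of 0.65 ± 0.18. Abcg1 was above wild type in both fusion libraries in 7 of 13 classes and below it in 1. Those above include T, NK and innate lymphoid cells, with 66.7, 70.7 and 37.1 CPM and no call. Stem and lymphoid progenitors, where Apoe differed widely, had 63.1, 48.3 and 57.0 CPM, and B cells 58.4, 42.8 and 56.1 CPM, with wild type between the fusion values in both. In the clusters made without called genes, Abcg1 was above wild type in all 4 neutrophil clusters, from 19.2, 15.5 and 2.35 CPM in the cluster with Fcnb and Cebpe to 169, 134 and 55.8 CPM in the most mature one.

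Abca1, the related exporter on chromosome 4 (53030787 to 53159895), did not share this pattern. It was highest in B cells, at 32.9 CPM or more in every library, and low in mature neutrophils, at 8.28, 6.51 and 4.20 CPM from 29, 22 and 14 UMIs, a log2 fold change of 0.70 ± 0.49. It was called in 0 of the 9 classes where it was fitted. The largest fitted value, 1.56 ± 0.59 in basophils and mast cells, came from 15, 20 and 11 UMIs. Fusion replicate 1 stood apart in pro-B cells, with 23.8 CPM against 2.79 and 4.02 in fusion replicate 2 and wild type.

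Apoe sits in a run of genes on chromosome 7, and 10 of these neighbours were followed with it. Apoc2, which encodes the activator of lipoprotein lipase and lies 21.2 kb from Apoe, rose in immature neutrophils (19.1, 18.0 and 4.18 CPM, log2 fold change 1.98 ± 0.24, edgeR adjusted p = 0.000477) and in mature neutrophils (73.3, 74.9 and 20.4 CPM, 1.76 ± 0.25, adjusted p = 0.000109). In monocytes and dendritic cells, where it was highest, it had 103, 111 and 113 CPM, a log2 fold change of -0.10. Apoc1, between the 2 genes, had a log2 fold change of 1.67 in mature neutrophils with an adjusted p of 0.0902. Tomm40 on the other side of Apoe was not called in any class (-0.02 in mature neutrophils). Bcl3, a regulator of NF-kB, fell in immature neutrophils (-1.43 ± 0.28, adjusted p = 0.0146). Of the other neighbours, Nectin2, Clptm1 and Relb were called in 0 classes, Apoc4 and Bcam passed the filter over all cells alone, and Cblc did not pass it anywhere. In stem and lymphoid progenitors 4 of the 10 neighbours were tested and 0 were called, at a median log2 fold change of 0.06 beside 0.00 for all genes.

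**Figure D5:**
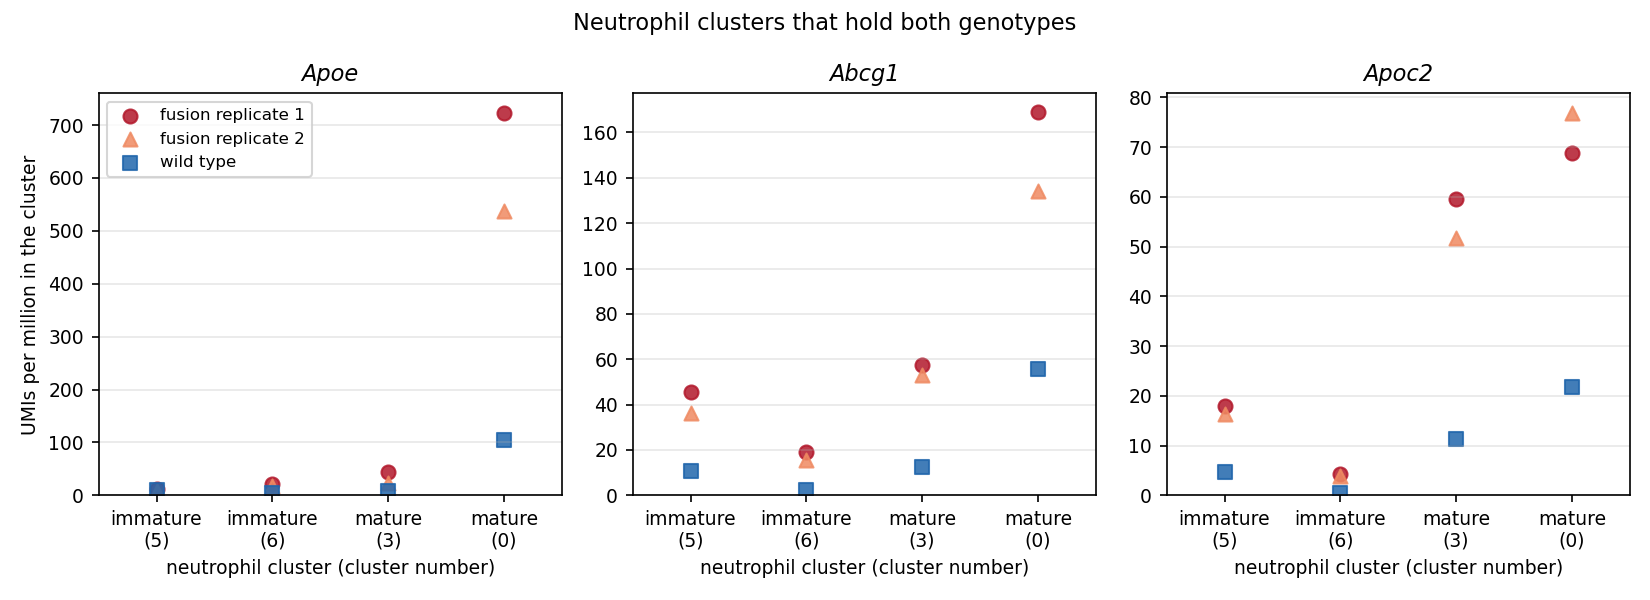
Apoe, Abcg1 and Apoc2 (CPM in the cluster) in the 4 neutrophil clusters made without the genes called between genotypes, so that each holds cells of all 3 libraries. For Abcg1 and Apoc2 the wild type square is the lowest point in all 4 clusters, and for Apoe in 3 of 4, the exception being immature cluster 5 with 11.9, 7.99 and 9.24.

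The wider pathway did not move as one. Apart from the members, 81 genes of apolipoprotein, receptor, sterol and fatty acid lists and of the neighbours above gave 633 pairs of gene and class, of which 8 were called higher and 13 lower by edgeR. That is 3.32% of pairs, beside 2.31% of all genes and classes, and DESeq2 called 4 and 3. Among apolipoproteins, lipases and lipid transfer genes, mature neutrophils had 1 of 7 higher (Apoc2) and 1 lower, Pla2g7, which encodes the lipoprotein-bound enzyme that clears platelet-activating factor (195, 220 and 455 normalised CPM, -1.13 ± 0.20, adjusted p = 0.00101). In monocytes and dendritic cells 0 of 8 were higher and 2 lower, Pla2g7 (-2.20 ± 0.25, adjusted p = 8.78e-16) and the lipoprotein lipase gene Lpl (11.7, 15.6 and 49.4 normalised CPM, -1.83 ± 0.26, adjusted p = 3.58e-10). The list's median log2 fold change in that class was -0.47, beside 0.01 for all genes. In monocytes and dendritic cells edgeR gave every gene the same spread. The p-values there lean most on the assumption that wild type varies like the fusion libraries. Clu, which encodes clusterin, fell in megakaryocytes (-1.07 ± 0.19, adjusted p = 0.00605), and the receptor gene Apobr fell in basophils and mast cells (-0.67 ± 0.18, adjusted p = 0.0118).

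Among lipoprotein and scavenger receptors, the sorting receptor gene Sorl1 fell in basophils and mast cells (57.8, 50.2 and 104 normalised CPM, -0.95 ± 0.18, adjusted p = 0.000125). In mature neutrophils Sort1, which encodes the sorting receptor sortilin, was the single call of 13 tested (116, 134 and 53.7 normalised CPM, 1.22 ± 0.22, adjusted p = 0.00115). The median of this list lay between -0.07 and 0.16 in the classes where it had a call.

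Sterol genes other than the exporters were mostly alike between genotypes. In mature neutrophils 1 of 18 rose, Arl4c, a small GTPase known as a target of the sterol receptor LXR (83.2, 70.3 and 25.9 normalised CPM, 1.57 ± 0.25, adjusted p = 0.000271), and 1 fell, Smpdl3a (-0.91 ± 0.20, adjusted p = 0.00537). Smpdl3a also fell in basophils and mast cells (-0.66 ± 0.19, adjusted p = 0.0175). In stem and lymphoid progenitors Nceh1, a cholesterol ester hydrolase gene, was the single call of 19 (50.4 and 45.01 normalised CPM in fusion, 28.5 in wild type, 0.74 ± 0.18, adjusted p = 0.0402). The medians of the list were -0.05 and -0.12 in these 2 classes, beside 0.02 and 0.00 for all genes.

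In the fatty acid list a single gene, Fabp5, which encodes an intracellular fatty acid binding protein, made up all calls within classes. It fell in mature neutrophils (14.0, 15.9 and 125 normalised CPM, -3.07 ± 0.22, adjusted p = 2.35e-08), in immature neutrophils (-1.51 ± 0.26, adjusted p = 0.00625) and in monocytes and dendritic cells (-0.90 ± 0.23, adjusted p = 0.00472). In erythroblasts it rose (99.4, 95.0 and 49.7 normalised CPM, 0.97 ± 0.17, adjusted p = 0.0210). In mature neutrophils 8 genes of this list were tested, and their median log2 fold change was -0.16.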

How the data were processed

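The authors deposited unnormalised UMI counts for every gene in each barcode. The submitters' processing notes name Cell Ranger 5.0.1, bcl2fastq 2.20.0.422 and GRCm38, and the file headers name Cell Ranger 5.0.0. Barcodes needed 1000 UMIs, 400 genes and a mitochondrial share of no more than 10%, and 225, 318 and 194 doublets predicted by scrublet (scanpy 1.11.5) were removed from fusion replicates 1 and 2 and wild type. Cells were clustered together on 2000 variable genes and 30 components (Leiden resolution 1, 25 clusters), with Apoe, Lrp1, Abcg1, Pltp and Cd36 among the variable genes, so a class is not independent of them. Clusters took the best-scoring marker list, and stem with lymphoid progenitors, monocytes with dendritic cells, and plasma with B cells were joined after their scores were seen. Counts were summed per library and class and fitted with edgeR 4.0.16 (quasi-likelihood, TMM, filterByExpr, Benjamini-Hochberg over the genes of a class), with 1 residual degree of freedom, so wild type is assumed to vary like the fusion libraries. In the monocyte, B and pro-B classes edgeR gave every gene the same spread, so p-values there lean most on that assumption. The code was tested on simulated data. Members and lists were chosen with earlier results of these data known. Named list genes were called, averaged at least 5 CPM in the class and were among the 3 largest changes per direction, list and class. Gene positions are from GENCODE M21. The result of 1 receptor gene is not reported here. Alternatives were DESeq2 1.42.0, its size factors, no gene filter, other resolutions, doublets kept, and clustering without lipid genes or without called genes.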

Additional observations from a re-analysis of the deposited data

Results flagged for a closer look

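Apoe and Fabp5 differed from wild type in opposite directions in different cell classes, with both fusion libraries on the same side in each. Apoe had a log2 fold change of 2.50 in mature neutrophils and -1.56 in B cells. The B cell value was called in 3 of 7 alternatives and was -0.42 with doublets kept. Plasma cells, few in the fusion libraries, held 35 of 49 and 6 of 34 UMIs behind it there, and 163 of 267 in wild type. Wild type was also highest in the B clusters without plasma cells. Fabp5 had -3.07 in mature neutrophils and 0.97 in erythroblasts. The difference between classes was not tested in either case.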

How the results depend on the processing

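No paired analysis was possible because the labels give no replicate numbers and there is only 1 wild type library. Within classes 9 member calls were higher and 2 lower, from 59 pairs tested, beside 2.315% called of all pairs of gene and class. Members were chosen by these same differences, so neither the number of calls nor their persistence supports anything. The lower calls were 1 with DESeq2, without the gene filter, with doublets kept and without called genes, the lost one being Apoe in B cells. Of the list genes, 8 calls were higher and 13 lower (3.318% of their pairs), against 4 and 3 with DESeq2 and 7 lower without called genes. Apoe gained a call in granulocyte-monocyte progenitors with DESeq2 size factors (1.90), at resolution 0.5 (1.92) and 2 (1.85), with doublets kept (2.01) and without called genes (1.83). It gained one in immature neutrophils with DESeq2 size factors (0.81), at resolution 0.5 (1.05) and 2 (0.85), and without lipid genes (1.13) or called genes (1.24), and in T, NK and innate lymphoid cells with doublets kept (1.34). It lost the call in basophils and mast cells, monocytes and dendritic cells, and B cells with DESeq2, in monocytes and dendritic cells at resolution 2 (1.02) and without lipid genes (1.23) or called genes (1.09), and in B cells with doublets kept (-0.42) and without called genes (-0.57). In pro-B cells the log2 fold change was 1.42 without a call, and -1.45 with one at resolution 0.5, where that cluster also held the B cells. Leaving out each fusion replicate moved the Apoe value between 0.66 and 1.56 in T, NK and innate lymphoid cells and between 0.18 and 0.99 in erythroblasts, where resolution 2 gave -1.08 without a call. Both fusion libraries exceeded wild type in 10 classes for the Apoe level, and in 7 of 13 once the 5 cells richest in Apoe were left out of each class and library. The causes were not tested except where cells changed class as stated. With 2 libraries against 1, animal and genotype cannot be told apart.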
